A study of Nothobranchius furzeri with 185 samples.

Results

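Mitochondrial ribosomal proteins build the ribosome that works inside the mitochondrion. They were followed here in the killifish Nothobranchius furzeri, a short-lived annual fish used to study aging. A locus was taken as a member when its deposited symbol began with mrpl or mrps and a number, and every such locus was kept. The rule gave 66 of 23564 loci. Of these 37 carried names of the large subunit and 29 names of the small subunit, under 62 distinct symbols. In all, 63 loci had counts and were tested in every comparison. The remaining 3, mrpl49, mrps25 and 1 of 3 loci named mrps35 (Nfu_g_1_003496), had no count in any library.

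RNA sequencing covered 185 libraries in 3 arms, all from fish of 1 species kept under 1 husbandry protocol. In the untreated aging arm, liver and skin were taken from 5 fish each at 5, 12, 20, 27 and 39 weeks. In the rotenone arm, brain, liver and skin came from 5 fish of 9 weeks in DMSO, 5 of 27 weeks in DMSO and 5 of 27 weeks in rotenone. Rotenone is an inhibitor of respiratory complex I; it was dissolved in DMSO and kept in the tank water at 15 pM for 4 weeks from week 23, and the controls received DMSO alone for 4 weeks from week 5 or week 23. In the longitudinal arm, the tail fins of 45 untreated fish were clipped at 10 and again at 20 weeks, and the fish were kept until natural death. Lifespan group 1 died first, group 2 in between and group 3 last, with 15 fish a group in 2 batches named in the titles. The replicate is the fish. P-values measure the spread between fish of 1 group or, where fish is a block, the spread of the differences within fish. Sex is not stated in the labels. Bulk tissue was sequenced, and fewer cells of a type and less RNA per cell cannot be told apart.

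As background, the mitochondrial ribosome translates the few messages encoded by mitochondrial DNA, all of them for subunits of the oxidative phosphorylation complexes. Its RNA is made in the mitochondrion, whereas every one of its proteins is encoded in the nucleus, made in the cytosol and imported. The large subunit holds the peptidyl transferase centre, the factor-binding stalk and the exit tunnel docked to the inner membrane; the small subunit decodes the message. Some proteins have bacterial counterparts and others occur only in mitochondria. A few names mislead: mrps30 and mrps18a sit in the large subunit of the mammalian particle, and mrps36 is now counted as a subunit of the 2-oxoglutarate dehydrogenase complex.

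Total counts ranged from 14.97 to 54.95 M a library, with a median of 30.51 M. Levels are given as the deposited RPKM, in which reads are divided by the length of the locus and the total of the library. Differences are log2 fold changes from edgeR's quasi-likelihood test on the counts with TMM scaling, which divides out a shift shared by most loci. A member was called higher or lower when its p-value, adjusted by Benjamini-Hochberg over all loci tested, was under 0.05. The share of all loci called in the same direction stands beside the first count of each comparison. As sums, defining markers of liver, skin and brain were high in the tissue of their label, with 12 liver markers at 25695 to 189010 CPM in livers. Not every marker was: hpx had no count in livers of 39 weeks. Among skin markers krt5 had none in untreated skins of 12 and 20 weeks and in DMSO skins of 27 weeks. Skins also held muscle RNA, at 15555 to 98182 CPM.

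Some libraries stood apart. The brain of fish MC10, a DMSO control of 27 weeks, differed most: 953 of 20132 loci were at least 8-fold lower there than in the mean of its 4 companions. No member was among those 953, and 62 of 63 members were higher in it, with a median difference of 0.96 on the log2 scale against 0.03 for all loci. Its erythrocyte markers summed to 3267 CPM, the highest of the 5. The skin of fish JM109 at 12 weeks held 13931 CPM of liver markers. The skins of MC7 (DMSO) and MR30 (rotenone) held germ cell markers at 737 and 1529 CPM. Counts without these libraries, or without other single fish, are given beside the results. The share of all loci called in such refits is given only for comparisons within brain without MC10. Elsewhere a change in such a count is not shown to be particular to the members.

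Members differed widely in level. Over all libraries mrps23, a small-subunit protein found only in mitochondria, had the highest mean at 89.4 RPKM. It was followed by mrpl27, whose bacterial counterpart reaches into the peptidyl transferase centre, at 63.8 RPKM and by mrps15, a counterpart of bacterial S15, at 42 RPKM. The lowest of the 63 were 1 locus of mrps35 (Nfu_g_1_011537) at 2.14 RPKM and mrps5, which sits near the entry of the message, at 3.24 RPKM. In the 9-week DMSO fish, the median over members of the mean level was 18.4 RPKM in brain, 14.1 in skin and 10.3 in liver.

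The same fish gave brain, liver and skin at 9 weeks, so tissues were compared within fish. With TMM scaling 48 members were lower and 1 higher in brain than in liver (35.6% and 43.6% of all loci), with a median of −0.62 that turned to 0.85 under total-count scaling. Between brain and skin 26 were lower and 2 higher (36.3% and 39.6% of all loci), with a median of −0.31 that turned to 0.41 under total-count scaling. Between skin and liver 27 were lower and 0 higher (29.3% and 35.1% of all loci), with a median of −0.30 that turned to 0.44. Set against the median of all loci, members were lower under both scalings, by 0.84 and 0.83 for brain against liver, by 0.37 and 0.37 for brain against skin and by 0.38 and 0.37 for skin against liver. A change of scaling shifts all loci of a library alike, so these gaps had to stay nearly the same. They are therefore not a second test. Without fish MC3 or MC5 the count for brain against skin was 17 or 18, against 28 in all, and without MC4 that for skin against liver was 16.

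One locus stood far from the rest. The symbol mrpl12 names 2 loci; the protein forms the mobile stalk that recruits translation factors, and in mammals it also binds the mitochondrial RNA polymerase. Locus Nfu_g_1_015879 measured 32.3, 55.9, 51.9, 80.1 and 40.5 RPKM in the 5 livers. In the brains of the same fish it measured 6.91, 6.12, 7.28, 7.31 and 8.9 RPKM, and in the skins 2.57, 7.49, 5.16, 8.34 and 5.76 RPKM. Every liver lay above every brain and skin. Its log2 difference was −4.22 ± 0.23 (SE) for brain against liver (edgeR adjusted p = 4.53e-09) and −3.93 ± 0.22 for skin against liver (edgeR adjusted p = 1.49e-08). The second locus, Nfu_g_1_019877, measured 13.2 ± 3.00 RPKM in liver, 14.7 ± 1.43 in brain and 18.1 ± 3.08 in skin (SD, n = 5), which on the TMM scale is −1.29 ± 0.15 for brain against liver. The sources used here do not say how reads shared by both loci were counted. The JM109 skin, which held liver markers, had 9.64 RPKM of Nfu_g_1_015879 against 0.76 to 1.37 in the other 4 skins of 12 weeks.

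With TMM scaling, most members were called lower in skin from 5 to 12 weeks and a smaller number in liver. Under total-count scaling more liver members were called than in this main analysis, as given further below. In liver 17 members were called lower and 3 higher (8.01% and 5.51% of all loci). Their median was −0.54 against 0.00 for all loci; under total-count scaling the median of all loci itself moved to −0.51, and members lay 0.63 below it. In skin 44 were called lower and 3 higher (16.6% and 14.6% of all loci), with a median of −0.86 against 0.01. In skin 28 of 36 loci with large-subunit names and 16 of 27 with small-subunit names were called lower. Fin ray and connective tissue markers summed to 90991 to 170670 CPM in skins of 5 weeks and 28342 to 64730 CPM in skins of 12 weeks, with 7 of 14 tested lower, 0 higher and spp1 at 0; their part in the result was not tested. Without fish JM109, whose skin held liver markers, 39 members were lower and 3 higher in skin.

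mrpl46, a large-subunit protein particular to mitochondria, shows the liver change. It measured 34.5, 31.4, 15.8, 13.7 and 20.2 RPKM in the 5 livers of 5 weeks. At 12 weeks it measured 4.28, 5.42, 6.71, 5.05 and 7.74 RPKM. Every young liver lay above every 12-week liver, and the log2 change was −1.41 ± 0.39 (edgeR adjusted p = 0.0199). mrps22, a small-subunit protein whose loss causes mitochondrial disease in humans, measured 31, 28.4, 14.8, 14.7 and 22.9 RPKM at 5 weeks and 3.77, 5.15, 5.55, 6.03 and 10.2 RPKM at 12 weeks. These groups did not overlap either, and it fell by 1.33 on the log2 scale (SE 0.34, edgeR adjusted p = 0.0137). mrps24, the counterpart of bacterial S3 at the message entry, changed by −1.52 ± 0.46 (edgeR adjusted p = 0.0306), although its lowest young liver, at 8.41 RPKM, lay just under the highest 12-week liver, at 8.67 RPKM.

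**Figure D1:**
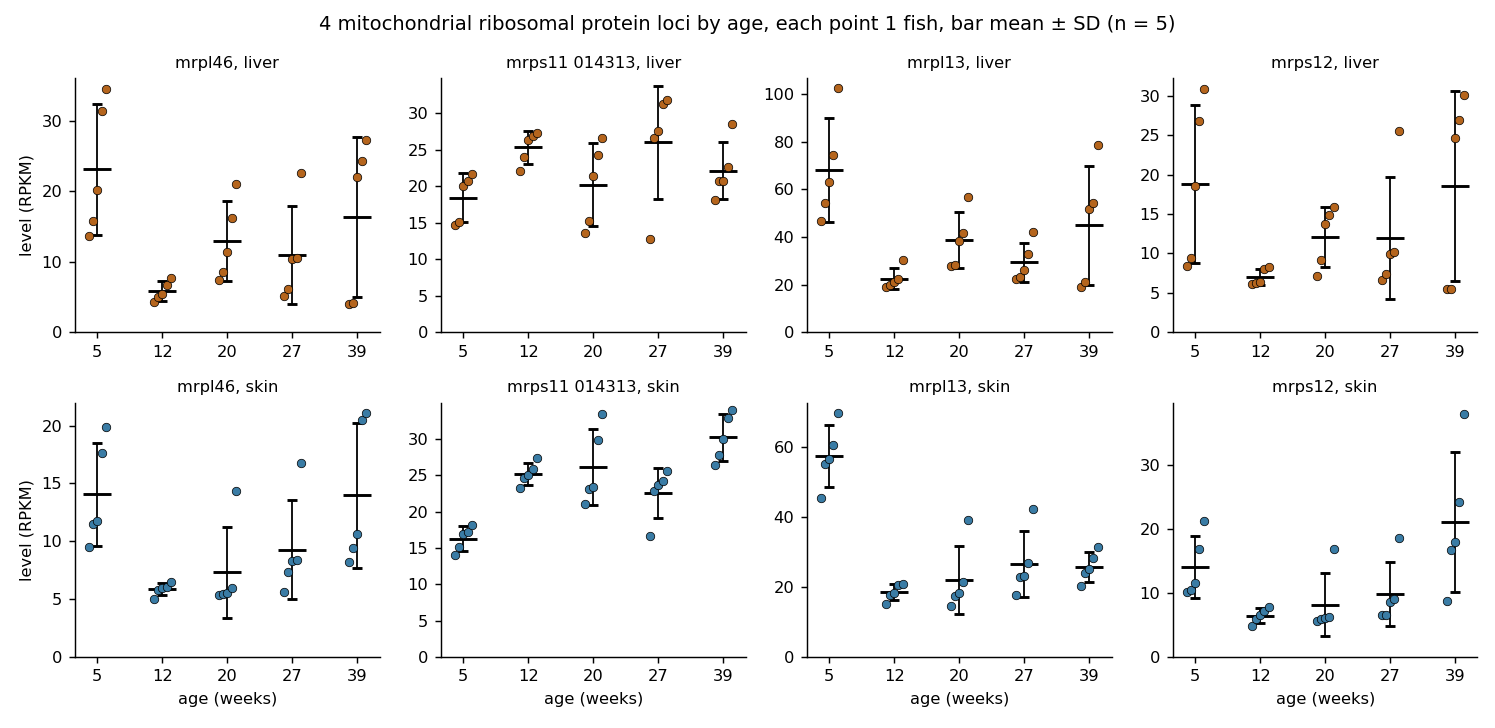
Levels in RPKM of 4 loci in liver (upper row) and skin (lower row) against age in weeks, each point 1 fish and each bar the mean ± SD of 5 fish; every axis starts at 0. mrpl46 and mrpl13 are lower at 12 than at 5 weeks in both tissues, mrps11 is higher, and mrps12 splits the 39-week livers into 2 at 5.46 RPKM and 3 from 24.7 to 30.1 RPKM.

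In skin the largest named falls were those of mrpl53 (−1.87 ± 0.38), mrps22 (−1.78 ± 0.33), mrpl22 (−1.71 ± 0.39) and mrpl13 (−1.70 ± 0.23). mrpl13, the counterpart of an early-binding protein of the bacterial large subunit, measured 69.7, 60.7, 55, 56.6 and 45.3 RPKM in the skins of 5 weeks. At 12 weeks it measured 17.7, 18.2, 20.9, 20.6 and 15.2 RPKM, so the groups were far apart (edgeR adjusted p = 2.23e-05). mrpl22 lines the exit tunnel, and its neighbour at the tunnel mouth, mrpl24, also fell, by 0.89 (SE 0.16).

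The 3 members that rose were in part the same loci in both tissues. Both loci named mrps11, a platform protein near the decoding site, rose in liver and in skin with TMM scaling; under total-count scaling no member was called higher in liver. Locus Nfu_g_1_014313 measured 21.7, 14.7, 15.1, 20.8 and 20.0 RPKM in livers of 5 weeks and 26.3, 23.9, 27.2, 26.9 and 22.1 RPKM at 12 weeks, without overlap. Its log2 change was 1.00 ± 0.33 in liver (edgeR adjusted p = 0.0483) and 0.57 ± 0.17 in skin (edgeR adjusted p = 0.0126). The second locus, Nfu_g_1_014390, changed by 1.01 ± 0.33 in liver (edgeR adjusted p = 0.0446) and 0.61 ± 0.19 in skin (edgeR adjusted p = 0.0188); the 2 loci may share reads. RefSeq places mrpl46 next to mrps11, so a gene with one of the larger falls is the neighbour of one that rose. The third riser was mrps18a in liver (1.01 ± 0.28, edgeR adjusted p = 0.0202) and mrpl10, the anchor of the stalk, in skin (0.46 ± 0.15, edgeR adjusted p = 0.0271).

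Some other genes of mitochondrial gene expression fell at the same time, whereas cytosolic ribosomal proteins did not. Mitochondrial translation factors and mitoribosomal proteins under other symbols are not given for this change. In skin 7 of 11 loci for mitochondrial transcription and RNA maintenance were lower and 0 higher. Among them were ssbp1, which coats single-stranded mitochondrial DNA (−2.51), lrpprc, which stabilises mitochondrial messages (−2.19), and the mitochondrial RNA polymerase polrmt (−1.16). In liver 4 of these 11 were lower and 0 higher, with ssbp1 at −2.08 and lrpprc at −1.74. Of 25 assembly and rRNA processing loci tested, 10 were lower and 1 higher in skin, and 5 and 0 in liver. Of 17 mitochondrial aminoacyl-tRNA synthetase loci, 5 were lower and 1 higher in skin, and 4 and 0 in liver. Of 77 cytosolic ribosomal protein loci, 0 were lower in either tissue, and 9 were higher in skin and 25 in liver.

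The difference between the tissues in this change was itself tested in 1 fit, with 3 fish contributing both tissues and no block by fish. No member was called, with a median of −0.32 for skin minus liver that turned to 0.28 under total-count scaling (1.35% of all loci were called higher and 1.36% lower). At an unadjusted p under 0.05 there were 4 members, and DESeq2 called 1; without JM109 the count was also 0. The liver count varied with the fish left out: it was 5 without JM104, 7 without JM105, 8 without JM101, 9 without JM106, 10 without JM98 and 11 without JM100, against 20 in all. In skin the count stayed between 38 and 51. The shares of all loci called in these refits are not given here.

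With TMM scaling, the calls in liver and skin differed later in life. In liver between 12 and 39 weeks no member was called and no locus of any kind was (0.0% higher and 0.0% lower), with 7 members at an unadjusted p under 0.05 and 0 called by DESeq2. The median of members was 0.01; total-count scaling moved it to 0.70 and that of all loci to 0.68. The 39-week livers did not form 1 level. mrps12, the decoding-centre protein, measured 24.7, 27 and 30.1 RPKM in fish JM1, JM12 and JM15, and 5.46 RPKM in both JM13 and JM18, against 6.14 to 8.25 RPKM at 12 weeks. mrpl46 divided the same fish, with 24.3, 27.3 and 22.1 RPKM against 4.21 and 4.05 RPKM. The group means lay between these levels, at 18.5 and 16.4 RPKM.

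Set against 5 weeks, the 39-week livers had 10 members lower and 0 higher (6.77% and 5.22% of all loci), with a median of −0.44. Under total-count scaling 0 members were called and the median was −0.31. mrps5 measured 9.56, 6.88, 3.8, 3.96 and 6.77 RPKM at 5 weeks and 3.47, 5.64, 1.52, 3.41 and 1.3 RPKM at 39 weeks. It fell by 1.13 (SE 0.27, edgeR adjusted p = 0.00796), although the groups overlapped. mrpl37 (−1.0 ± 0.26), mrps30 (−0.99 ± 0.27) and mrpl28 (−0.83 ± 0.25) followed. This count moved with single fish, to 3 without JM15 or JM18, 4 without JM13, JM97, JM98 or JM101, 6 without JM1 or JM103 and 16 without JM12.

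In skin members rose after 12 weeks. From 12 to 27 weeks none was called and no locus was (0.0% higher and 0.0% lower). Of 63 members 61 had positive values with a median of 0.49, and 35 reached an unadjusted p under 0.05. The members share libraries and are not independent replicates, and the matching shares of all loci are not given here. The DESeq2 count was 1, and without JM109 the edgeR count was also 0. From 27 to 39 weeks 39 were called higher and 0 lower (17.1% and 20.7% of all loci), with a median of 0.62; without fish JM1 25 were and without JM109 38. From 12 to 39 weeks 58 of 63 were called higher and 0 lower (24.3% and 25.1% of all loci), with a median of 1.13 against 0.06 for all loci. Under total-count scaling members lay 1.04 above all loci, a gap that the choice of scaling can hardly move. Without fish JM109 56 were higher and 0 lower.

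mrps12 measured 5.98, 7.74, 6.53, 7.12 and 4.78 RPKM in skins of 12 weeks. At 27 weeks it measured 6.48, 9.02, 8.61, 6.48 and 18.5 RPKM, and at 39 weeks 37.9, 18, 24.3, 16.8 and 8.66 RPKM. Every 39-week skin lay above every 12-week skin. At 27 weeks fish JM83 and the fish at 9.02 RPKM reached into the oldest group, whose lowest skin was at 8.66 RPKM. Between 12 and 39 weeks it changed by 2.13 ± 0.36 (edgeR adjusted p = 4.69e-05). mrpl20, whose bacterial counterpart is needed early in assembly of the large subunit, rose by 1.99 ± 0.37 (edgeR adjusted p = 0.000105), from 10.3 to 14.4 RPKM at 12 weeks and 13.3 to 68.7 RPKM at 39 weeks, with 1 old fish inside the younger range. mrpl51 (1.94 ± 0.39) and mrpl53 (1.90 ± 0.38) came next. In the large subunit mrpl2, mrpl3, mrpl4 and mrpl16 rose by 1.00, 1.18, 1.30 and 1.28, with SEs from 0.16 to 0.28. The 5 members not called were Nfu_g_1_015879 of mrpl12 (−0.80), Nfu_g_1_003531 and Nfu_g_1_011537 of mrps35 (−0.14 and 0.42), mrpl37 (0.47) and mrps5 (0.54).

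Between 5 and 39 weeks 23 members were higher and 5 lower (25.6% and 28.9% of all loci), with a median of 0.35 that came to 0.00 under total-count scaling. Without JM109 22 were higher and 5 lower. Highest were mrps18a (1.4 ± 0.23), mrpl10 (1.24 ± 0.16), mrps11 Nfu_g_1_014313 (1.21 ± 0.17) and mrpl39 (1.21 ± 0.19). Lower were mrps35 Nfu_g_1_003531 (−1.25 ± 0.29), mrpl13 (−0.83 ± 0.22), mrps5 (−0.75 ± 0.27), mrpl37 (−0.70 ± 0.27) and mrpl24 (−0.40 ± 0.16). With total-count scaling the split was 12 higher and 12 lower, and with a trend on the loci low in the MC10 brain removed it was 11 higher and 17 lower. The shares of all loci under both settings are not given here.

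With TMM scaling the change from 12 to 39 weeks was higher in skin than in liver for many members. The joint fit had no block by fish, although 5 fish of 12 and 39 weeks gave both tissues. In it the difference was called higher for 37 members and lower for 0 (8.34% and 13.2% of all loci), and without JM109 for 34 and 0. Under total-count scaling 2 were higher and 1 lower, and the median turned from 1.06 to −0.07 while the median of all loci moved to −1.15. mrps18a (1.91 ± 0.36, edgeR adjusted p = 0.000172) and mrps15 (1.88 ± 0.29, edgeR adjusted p = 1.19e-05) differed most.

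Other measures moved with age in these skins. Cytosolic ribosomal proteins were higher at 39 than at 12 weeks for 75 of 77 loci and lower for 0, with a median of 1.27. The 15 fin ray and connective tissue markers summed to 28342 to 64730 CPM at 12 weeks and 1116 to 4307 CPM at 39 weeks, with 14 of 15 having counts and spp1 at 0. The loci that were low in the MC10 brain had a mean log2 CPM of 0.95 to 2.11 in skins of 5 to 27 weeks and −1.19 to 0.40 at 39 weeks. Once a trend fitted on those loci was removed, 15 members were called higher and 0 lower from 12 to 39 weeks, and 0 higher and 1 lower from 27 to 39 weeks. The matching shares of all loci are not given here. In that brain 62 of 63 members were higher, and whether the removal took out part of their own change was not tested. The part of the marker sums in the result was not tested.

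**Figure D2:**
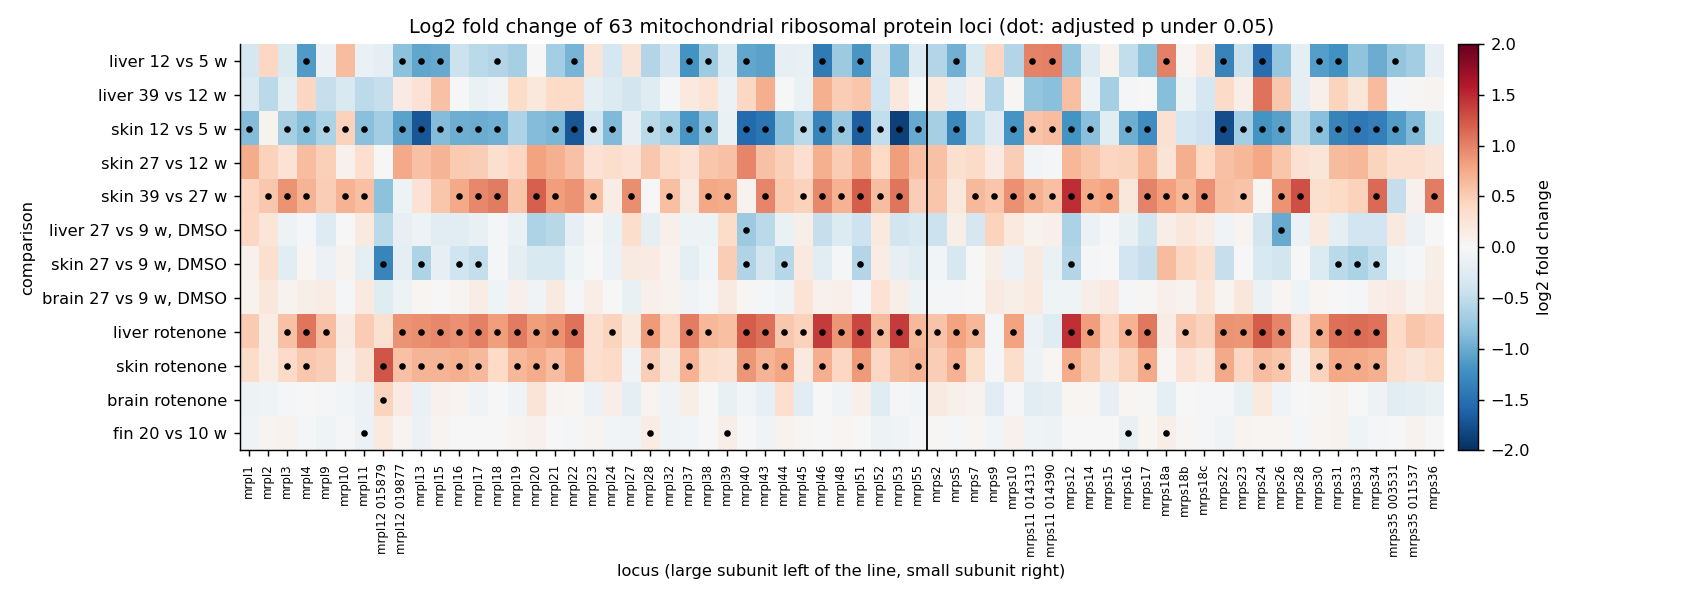
Log2 fold change of the 63 tested loci (columns, large-subunit names left and small-subunit names right of the line) in 12 comparisons (rows), with a dot where the adjusted p was under 0.05. The row of skin at 12 against 5 weeks holds 44 lower calls and that of liver under rotenone 44 higher calls, while the brain rows hold 0 and 1. Both brain rows include fish MC10. Without it there were 10 lower calls at 27 against 9 weeks and 26 higher calls under rotenone.

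In the DMSO fish, the calls with age varied by tissue. With TMM scaling the share of members called lower was below that of all loci in liver and above it in skin. Between 9 and 27 weeks 2 were lower and 0 higher in liver (7.68% and 4.69% of all loci), with a median of −0.12 that turned to 0.10 under total-count scaling. They were mrps26, at 8.84, 11.4, 15.6, 15.5 and 12.6 RPKM at 9 weeks and 7.57, 6.19, 10.0, 5.44 and 7.69 RPKM at 27 weeks (−1.01 ± 0.19, edgeR adjusted p = 0.00887), and mrpl40 (−0.73 ± 0.22, edgeR adjusted p = 0.0452). In skin 11 were lower and 0 higher (6.76% and 3.71% of all loci), with a median of −0.12; total-count scaling gave 4 higher and 0 lower and a median of 0.14. Set against the median of all loci the members lay 0.17 below it, a gap that the choice of scaling can hardly move. The largest was again Nfu_g_1_015879 of mrpl12 (−1.32 ± 0.31, edgeR adjusted p = 0.0177), ahead of mrps33 (−0.63), mrpl13 (−0.61) and mrpl40 (−0.60). For this liver-rich locus of mrpl12 the part of any liver RNA in the skins was not tested. The liver count was 9 without MC1, 5 without MC9, 4 without MR26 and 1 without any of MC2 to MC8, MR27, MR29 or MR30. The skin count was 1 without MC3, MC5 or MC9, 3 without MC6, 4 without MC2, 6 without MC4 or MR28 and 7 without MC1 or MC8; it was 9 without MC7 and 15 without both skins that held germ cell markers. In brain 0 were higher and 0 lower (1.2% and 0.889% of all loci), none at an unadjusted p under 0.05; without MC10 there were 0 higher and 10 lower (8.19% and 8.33% of all loci), with a median of −0.18.

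Members were higher under rotenone in liver and skin. In liver 44 of 63 were called higher and 0 lower than in DMSO at 27 weeks (13.9% and 12.0% of all loci). Their median was 0.74, a 1.67-fold rise, against −0.08 for all loci. In skin 29 were called higher and 0 lower (7.08% and 5.19% of all loci), with a median of 0.49, a 1.4-fold rise, against 0.07. In liver 27 of 36 loci with large-subunit names and 17 of 27 with small-subunit names were higher, and in skin 19 and 10.

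mrps12 measured 7.31, 5.5, 8.85, 5.53 and 9.05 RPKM in the 5 DMSO livers. In the 5 rotenone livers it measured 15.3, 18.9, 15.5, 22.9 and 21.6 RPKM, so that the lowest treated fish stood well above the highest control. Its log2 change was 1.46 ± 0.20 (edgeR adjusted p = 0.0012). mrpl46 measured 4.53 to 11.6 RPKM in DMSO and 16.2 to 24.4 RPKM in rotenone, without overlap (1.4 ± 0.23, edgeR adjusted p = 0.00159). mrpl51, a small protein of the large subunit, measured 7.73 to 12.6 and 19.5 to 31.1 RPKM (1.33 ± 0.17, edgeR adjusted p = 0.000948), and mrpl53 rose by 1.4 (SE 0.23).

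Members of each role are given for liver next; differences between roles were not tested. At the decoding side mrps12 rose most and mrps5 (0.81) and mrps7 (0.66) were called higher too, whereas the platform protein mrps11 gave −0.12 ± 0.20 and −0.24 ± 0.22 for its 2 loci, with edgeR adjusted p-values of 0.68 and 0.43. At the stalk the Nfu_g_1_019877 locus of mrpl12 rose by 0.90 (SE 0.17), while mrpl10 (0.16 ± 0.17), mrpl11 (0.51 ± 0.23) and the liver-rich Nfu_g_1_015879 (0.30 ± 0.26) were not called. Of mrpl2, mrpl3, mrpl4 and mrpl16 in the large subunit, mrpl4 (1.07), mrpl16 (0.92) and mrpl3 (0.58) were called higher and mrpl2 (0.15 ± 0.23) was not. Along the exit tunnel mrpl22 (1.09), mrpl44 (0.53), mrpl45 (0.46) and mrpl24 (0.45) were called higher and mrpl23 (0.33 ± 0.17) was not. mrps22 (0.90), mrps34 (1.09), mrps16 (0.70) and mrps30 (0.74) were all called higher.

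In skin the largest change was that of Nfu_g_1_015879 of mrpl12, at 2.3, 1.39, 5.17, 2.58 and 2.57 RPKM in DMSO and 5.81, 6.51, 4.44, 6.81 and 8.08 RPKM in rotenone. One control fish reached into the treated range, and the change was 1.26 ± 0.31 (edgeR adjusted p = 0.0159). This locus was far higher in liver than in skin, and the part of any liver RNA in these skins was not tested. mrpl40 measured 11.1 to 17.8 RPKM in DMSO and 21.9 to 25.8 RPKM in rotenone, without overlap (0.88 ± 0.17, edgeR adjusted p = 0.00551). mrpl51 (0.86 ± 0.16) and mrpl44, whose fold resembles RNase III (0.79 ± 0.16), came next. Of the 29 called in skin 28 were among the 44 called in liver, which is 96.55% of the one list and 63.64% of the other; both tissues came from the same fish. Those 44 were most of the 63 members tested, so most of any list of members would overlap with them. The log2 changes of the 2 tissues had a Pearson r of 0.74 across the members and 0.55 across all 16323 loci tested in both. The skin count was 17 without MC9 or MR29, 18 without MR28 and 19 without MR26, and 33 without the 2 skins that held germ cell markers.

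In brain 1 member was called higher and 0 lower (3.26% and 5.43% of all loci), with a median of −0.03 that turned to 0.02 under total-count scaling. It was Nfu_g_1_015879 of mrpl12, at 5.25, 6.7, 6.87, 5.47 and 5.98 RPKM in DMSO and 7.93, 8.61, 7.35, 9.9 and 8.35 RPKM in rotenone. The groups did not overlap, and the change was 0.45 ± 0.12 (edgeR adjusted p = 0.0371). Without the MC10 brain 26 members were called higher and 0 lower (14.7% and 17.8% of all loci), with a median of 0.22 against −0.001 for all loci. Of 63 members 58 were positive, but members share libraries and are not independent. The matching share of all loci is not given here. The loci low in the MC10 brain moved with this result: their mean log2 CPM was 3.77 to 3.96 in the other 4 DMSO brains and 1.39 to 2.12 in the rotenone brains, and their part in it was not tested. Largest were then mrpl20 (0.56 ± 0.09), mrps24 (0.49 ± 0.11), mrpl44 (0.48 ± 0.10) and mrpl51 (0.45 ± 0.09), followed by Nfu_g_1_015879 of mrpl12 (0.42 ± 0.13). Without any 1 of the other 27-week brains the count was 0, except for MR28, where it was 1.

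**Figure D3:**
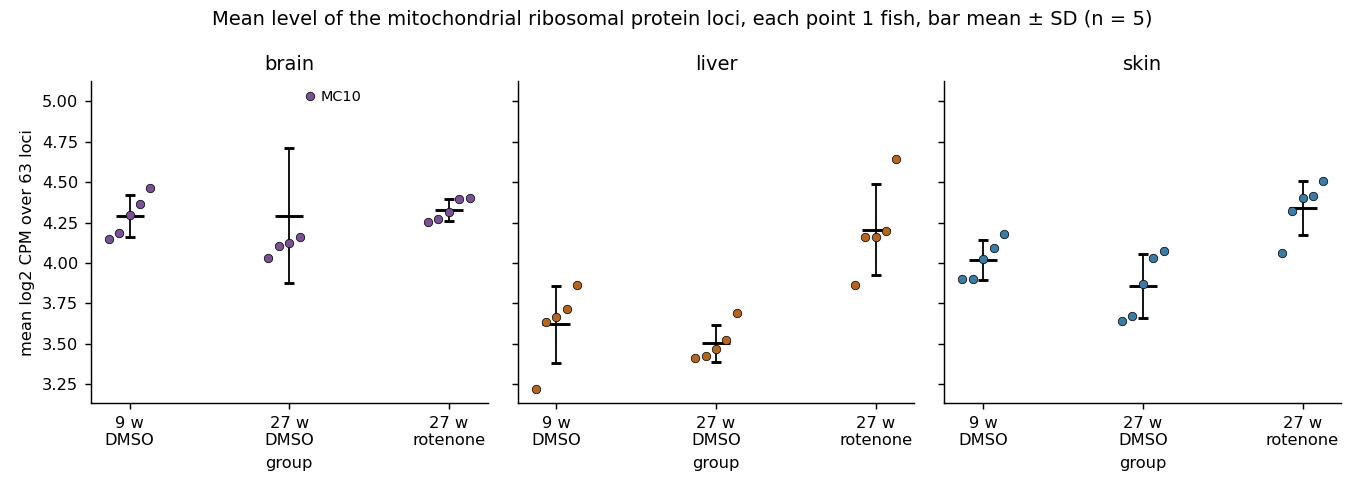
Mean log2 CPM over the 63 loci in brain, liver and skin of the DMSO and rotenone fish, each point 1 fish and each bar the mean ± SD of 5 fish. The rotenone livers lie from 3.86 to 4.65 and the DMSO livers of 27 weeks from 3.41 to 3.69, whereas in brain fish MC10 at 5.04 stands above all others.

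Tested as a difference between tissues of the same fish, the rotenone change was lower in brain than in liver for 21 members and higher for 0 (3.59% and 2.51% of all loci), with a median of −0.70. mrpl46 (−1.36 ± 0.32, edgeR adjusted p = 0.0168) and mrps12 (−1.34 ± 0.26, edgeR adjusted p = 0.00596) were among them. Without MC10 17 were called; the count was 1 without MR27, 2 without MR29, 5 without MC6 or MR26, 11 without MC8, 12 without MC7 and 13 without MC9 or MR30. Total-count scaling gave 2. Between skin and liver 0 members were called (0.317% of all loci higher and 0.448% lower), 6 at an unadjusted p under 0.05 and 1 by DESeq2, with a median of −0.31. Between skin and brain 0 were called (0.0233% higher and 0.00933% lower), with 14 at an unadjusted p under 0.05 and a median of 0.38. Without fish MC7 or MR30 both counts were also 0.

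Many other genes of mitochondrial gene expression were also higher under rotenone in liver. Of 16 translation factor loci 9 were called higher and 0 lower, with the elongation factor gfm1 at 2.25. Of 25 assembly loci 12 were higher and 0 lower, with the helicase dhx30 at 2.11. Of 11 loci for transcription and RNA maintenance 8 were higher and 0 lower, with the poly(A) polymerase mtpap at 1.63 and ssbp1 at 1.45. Of 17 aminoacyl-tRNA synthetases 6 were higher and 0 lower. In skin these lists gave 6, 9, 4 and 4 higher and 0 lower. The cytosolic ribosomal proteins gave 2 of 77 higher in liver and 1 in skin. Among 12 loci of nuclear regulators in liver 4 were higher and 3 lower. Among the lower was gabpa, a subunit of an ETS-type activator of mitochondrial genes, at −0.61. From 5 to 12 weeks its log2 change was 0.95 in liver and 0.50 in skin. It was picked from this list, the 4 that were higher are not named here, and its part was not tested.

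In these livers the loci low in the MC10 brain had a mean log2 CPM of 1.17 to 2.23 in DMSO and −0.44 to 1.48 in rotenone, and in skins 1.78 to 2.07 and 1.11 to 1.64. With a trend on those loci removed, 31 members were called higher and 1 lower in liver, and 13 and 0 in skin. The matching shares of all loci are not given here. Macrophage markers summed to 308 to 1079 CPM in DMSO livers and 192 to 334 CPM in rotenone livers, with all 11 having counts, 2 called lower and 0 higher. Erythrocyte markers summed to 704 to 2317 and 480 to 787 CPM, with 3 of 7 lower and 0 higher. Muscle markers in the skins summed to 15555 to 28192 CPM in DMSO and 22712 to 57658 CPM in rotenone, with ckma at 0 and none of 10 called. The part of these markers in the result was not tested.

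Calls in the change from 5 to 12 weeks and under rotenone, which share no fish, were set side by side. In liver 16 of the 17 members that were lower at 12 weeks were higher under rotenone, or 94.12% of the one list and 36.36% of the 44, where 69.84% of all tested members were higher under rotenone. In skin 25 of the 44 were, or 56.82% of the one list and 86.21% of the 29, where 46.03% of all tested members were. Across the 63 loci the log2 changes had a Pearson r of −0.86 and a Spearman rho of −0.85 in liver, and −0.76 and −0.78 in skin. Over all loci tested in both the values were −0.29 and −0.36 in liver and −0.47 and −0.54 in skin. The loci of 1 comparison share their libraries and are not independent replicates, so these values only describe the order. Such an order was also seen in other pairs without shared fish: across the members, skin at 12 against 5 weeks and liver under rotenone had r = −0.83 and rho = −0.81, and liver under rotenone and fins of group 3 against group 1 at 10 weeks, where no locus was called, had r = −0.65 and rho = −0.66 (−0.36 and −0.46 over all loci). Between skin at 39 against 27 weeks and skin under rotenone r was −0.17 and rho −0.05.

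**Figure D4:**
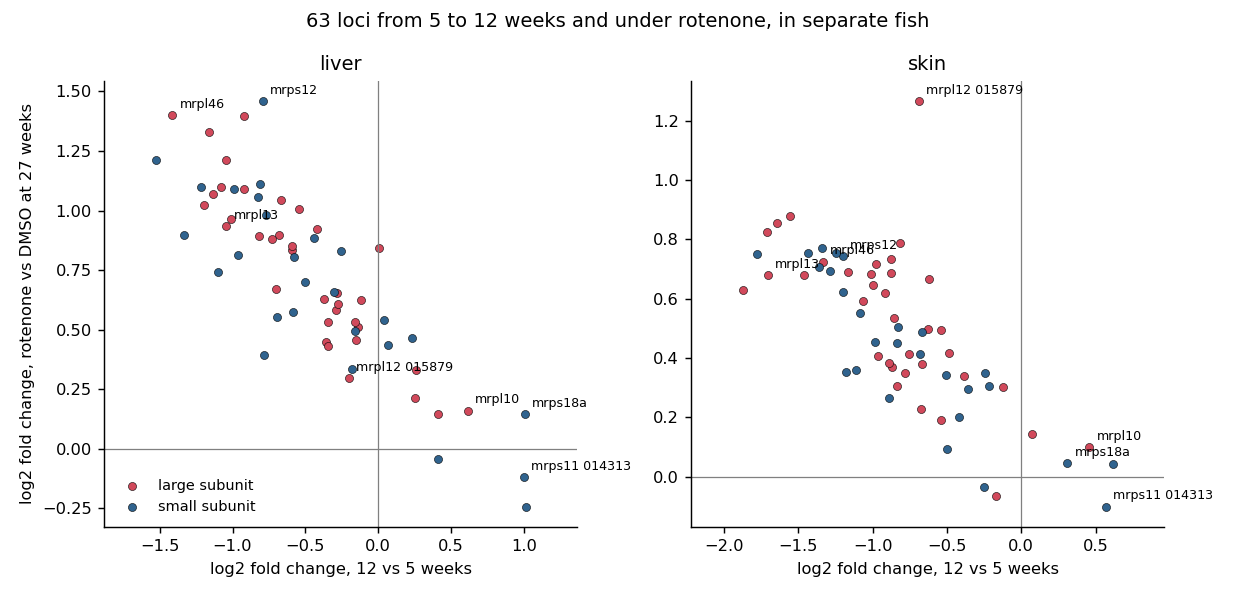
Log2 fold change at 12 against 5 weeks (horizontal axis) and under rotenone at 27 weeks (vertical axis) for 63 loci in liver (left) and skin (right), coloured by the subunit in the name. Loci with the larger falls, such as mrpl46 at −1.41 in liver, have the larger rises under rotenone (1.4), and mrps11, which rose with age, lies near 0.

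In the fins members hardly moved between 10 and 20 weeks. Within fish 3 were called higher and 2 lower (11.3% and 12.7% of all loci), with a median of 0.00. The changes were small: mrpl28 (0.15 ± 0.05, edgeR adjusted p = 0.0231), mrpl39 (0.14 ± 0.05, edgeR adjusted p = 0.0261) and mrps18a (0.13 ± 0.05, edgeR adjusted p = 0.0381), in which 2 fish stood apart, rose, and mrps16 (−0.15 ± 0.05, edgeR adjusted p = 0.027) and mrpl11 (−0.12 ± 0.04, edgeR adjusted p = 0.0151) fell. Within batch 1 there were 1 higher and 1 lower, and likewise within batch 2, where mrpl28 stood at −0.01. Without the pairing by fish 3 were called.

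Whether fish that were to live long differed in these loci was asked at both ages. At 10 weeks no member was called between group 3 and group 1 and no locus was (0.0% higher and 0.0% lower), with 2 members at an unadjusted p under 0.05 and 0 by DESeq2. The median was −0.16, with 59 of 63 members lower in the longer-lived fish, and it was −0.19 within batch 1 and −0.14 within batch 2. Because the members share libraries, those 59 are not independent results, and the matching share of all loci is not given here. At 20 weeks none was called (0.0% and 0.0%), 3 had an unadjusted p under 0.05, and the median was −0.02. The change from 10 to 20 weeks did not differ for any member between group 3 and group 1 at this threshold (0.0% and 0.0%, 0 at an unadjusted p under 0.05, median 0.14). Fitted as a slope, the median change was −0.05 per 10 weeks of age at death in clips of 10 weeks and −0.01 in clips of 20 weeks. The mean log2 CPM over members was 3.91 ± 0.30 in group 1, 3.68 ± 0.29 in group 2 and 3.76 ± 0.22 in group 3 at 10 weeks (SD, n = 15), so the middle group was lowest.

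**Figure D5:**
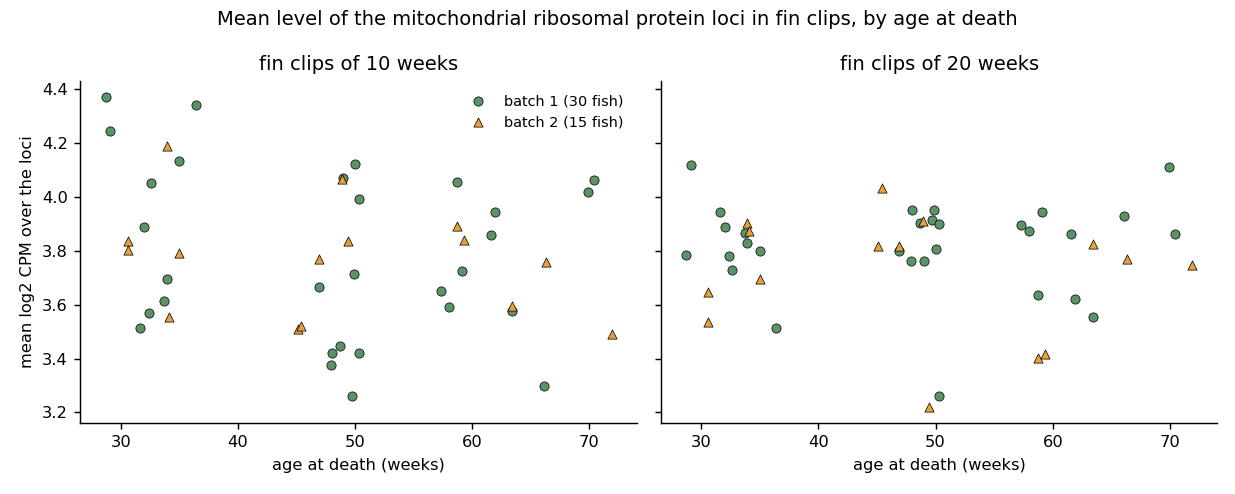
Mean log2 CPM over the 63 loci in the fin clips of 10 weeks (left) and 20 weeks (right) against age at death in weeks, each point 1 fish, circles batch 1 and triangles batch 2. The 3 clusters along the horizontal axis are the lifespan groups, and their ranges of level overlap at both ages.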

How the data were processed

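Per the labels' protocols, RNA was isolated with QIAzol and libraries were made with the TruSeq kit. The submitters' processing notes name CASAVA 1.8.0 and 1.8.2, bcl2fastq 1.8.4, TopHat2 2.0.6 and featureCounts 1.4.3-p1; for the genome build, annotation and strand the entry is: not given in the sources used here. Raw counts per locus and RPKM values, scaled to each library's total count and locus length, were deposited by the authors. From the counts, edgeR 4.0.16 (R 4.3.3, filterByExpr, TMM, robust quasi-likelihood) was fitted per tissue and arm, and p-values were adjusted over all loci. Fish was a block where tissues of the rotenone arm or fin clips came from the same fish, and batch was a term between lifespan groups. The joint fit of liver and skin in the aging arm had no block by fish, although some fish gave both tissues. DESeq2 1.42.0, RLE, no filter, removal of a length trend or of a trend on the loci low in the MC10 brain, leaving out each fish and total-count scaling were alternatives; code was tested on simulated data. The members and gene lists were chosen with earlier results of these data known. Named members were, in each comparison, up to 4 called loci with the largest rise and 4 with the largest fall, the 2 with the smallest p where none was called, and a list by role. The pairing by fish is given by the labels, which tie libraries to fish. Sequences were not used here. RefSeq symbols gave the neighbours: 61 of 62 member symbols matched. No library pair within a group agreed within sampling noise (lowest chi-square per degree of freedom 11.1). Pairs across groups were not compared. Totals of 14.97 to 54.95 M counts set the precision.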

Additional observations from a re-analysis of the deposited data

Results flagged for a closer look

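The brain of fish MC10 had the highest mean level of the members in the 27-week DMSO group, 5.035 mean log2 CPM against a group median of 4.13, and was farther from its nearest neighbour than a group of 5 usually allows. Of 63 members 60 lay above all of the other 4 brains in RPKM. The liver of fish JM61 at 27 weeks had the lowest mean of its group, 3.335 mean log2 CPM against a median of 3.97, with 19 of 63 members below and 2 above all of the other 4 livers in RPKM. For both libraries the share of all loci that lay apart in this way was not counted. RPKM also lacks the TMM scaling of the means. In all 19 groups of 5 were examined for such a library, and chance alone marks about 1 in 20 groups. The change from 12 to 39 weeks differed between skin and liver for 37 members, all higher in skin. The change under rotenone differed between brain and liver for 21 members, all lower in brain. Both counts come from edgeR's test of the difference between the tissues with TMM scaling, and both fell under total-count scaling.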

How the results depend on the processing

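Values below count called members unless a log2 value is named. Total-count scaling and removal of the MC10 trend were chosen after seeing the data. Total-count scaling gave 40 for liver at 12 against 5 weeks (20 in the main analysis), 0 for liver at 39 against 5 (10), 14 for skin at 39 against 27 (39), 1 for liver and 4 for skin at 27 against 9 weeks in DMSO (2 and 11, the skin calls now higher), 19 for skin under rotenone (29), 54, 34 and 37 for brain against liver, brain against skin and skin against liver, with medians of 0.846, 0.41 and 0.44 and with mrps18b at 0.004 and mrpl21 at 0.091 (main −1.47 and −1.38), and 3 and 2 for the differences skin minus liver at 39 against 12 weeks and brain minus liver under rotenone. It turned the medians of skin minus liver to 0.283 at 12 against 5 weeks and −0.071 at 39 against 12 weeks. The MC10 trend removed gave 1, 15, 8, 7 and 13 for skin at 39 against 27 and 39 against 12 weeks, liver and skin in DMSO and skin under rotenone. It turned the median of skin at 39 against 5 weeks to −0.188, with mrpl4 at −0.028 and mrps7 at −0.041, and at 39 against 27 weeks turned mrpl11 to −0.052, mrpl2 to −0.0, mrpl45 to −0.173 and mrps7 to −0.039. At 39 against 12 weeks it turned mrpl10 and mrps11 (Nfu_g_1_014313) to −0.044, mrpl45 to −0.014 and mrps30 to −0.023. The shares of all loci called under these settings are not given here, and the causes were not tested.

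DESeq2 gave 16 for liver at 39 against 5 weeks, 6 for liver in DMSO, and 1 each for skin at 27 against 12 weeks and for skin minus liver at 12 against 5 weeks and under rotenone. No filter gave 1 for liver in DMSO, and the length trend removed gave 49 for skin against liver. In fins batch 1 and batch 2 alone gave 2 each, with mrpl28 at −0.009 in batch 2. Without the replicate block by fish the fins gave 3, and brain against liver, brain against skin and skin against liver gave 50, 31 and 28; no other call count changed by over 1.5 times.

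Leaving out 1 fish at a time gave 5 to 23 for liver at 12 against 5 weeks, 3 to 16 for liver at 39 against 5, 25 to 41 for skin at 39 against 27, 0 to 10 and 0 to 26 for brain in DMSO and under rotenone, 1 to 9 and 1 to 12 for liver and skin in DMSO, 17 to 32 for skin under rotenone, 17 to 31 for brain against skin, 16 to 33 for skin against liver, 0 to 1 for skin minus liver at 12 against 5 weeks, and 1 to 17 and 0 to 2 for brain minus liver and skin minus liver under rotenone. The shares of all loci called in these refits are not given in this section. Of 578 alternative counts 487 stayed within 1.5 times the main count. The lowest median of the tested loci was that of Nfu_g_1_011537 of mrps35, at 76 counts a library. The lowest single count, 9, was that of Nfu_g_1_015879 of mrpl12, whose median was 169.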

Other observations

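These values were singled out after they were seen, and none was tested. In the fin clips mrps18a had a similar level in 43 fish, 3.46 to 7.61 RPKM at 10 weeks and 3.7 to 7.8 RPKM at 20 weeks. In fish LS39 it measured 24.4 and then 30.1 RPKM, and in fish LS44 22.3 and then 28.3 RPKM, both in batch 2 but in different lifespan groups (group 2 and group 1). Of 11348 loci above 2 RPKM in all 4 of these clips, 37 had their lowest clip over 1.5 times the highest of the other 43 fish, and mrps18a was the 1 member among them. Another was tmem63a, a membrane channel gene that RefSeq places on the same chromosome with 2 genes between it and mrps18a. It measured 32.6 to 62.3 RPKM in the 4 clips and at most 5.95 RPKM in the other fish.

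The counts that follow are in RPKM, and the share of all loci was not counted. One fish stood high in both tissues on that scale. At 27 weeks fish JM83 lay above all 4 others for 43 of 63 members in skin and for 38 in liver. There mrps12 measured 18.5 RPKM in skin (others 6.48 to 9.02) and 25.5 RPKM in liver (others 6.59 to 10.1). With TMM scaling the 27-week fish lay closer together. Their highest mean log2 CPM over members was 4.01 in skin (median 3.85) and 4.13 in liver (median 3.97). At 20 weeks fish JM79 lay above all 4 others for 51 members in skin, but in liver for 8 and below them for 7. At 39 weeks mrps12 had the same order of fish in both tissues as far as the high and low pairs go: JM1 and JM15 measured 37.9 and 24.3 RPKM in skin and 24.7 and 30.1 RPKM in liver, and JM13 and JM18 measured 18 and 16.8 RPKM in skin and 5.46 RPKM each in liver.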
